A study of Mus musculus with 27 samples.

Results

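Otx2, Otx1, Mitf and Tfec encode 4 transcription factors that take part in setting the fate of the retinal pigment epithelium (RPE), and they are described here in the optic stalk (OS) of mouse embryos at embryonic day 14 (E14). The genes were chosen by name and found through their Ensembl identifiers, and they are 4 of the 55487 genes counted. All 4 passed the filter on low counts, for which over 10 counts were asked in 3 or more libraries of the 27. RNA was taken by laser-capture microdissection (LCM) from the dorsal OS, the ventral OS and the area of retinal ganglion cell (RGC) axons of 4 control and 5 Smarcc1-DCT-cKO embryos, which gives 6 groups of 4 or 5 libraries. The mutants were homozygous for a loxP-flanked allele of Smarcc1 (Baf155 loxP/loxP), which encodes a core part of the chromatin remodeller SWI/SNF, and carried Dct-Cre and the Z/EG reporter. The controls were littermates without Dct-Cre, and both genotypes were on a C57Bl6/J background. Dct-Cre is driven by a pigment-lineage gene that is itself among the genes measured here, and it acts in the RPE and other pigmented lineages of the eye as well as in the OS. Each captured piece is a mixture of the cells in it, so a lower value may come from fewer cells of a type or from less RNA per cell, and these cannot be told apart.

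The early eye cup and the OS come from the same neuroepithelium, and its cells take the fate of RPE, neural retina or stalk according to the transcription factors they keep. OTX2 and OTX1 are related homeodomain proteins that are expressed in the presumptive RPE (pRPE), and OTX proteins recognise sites that hold the letters TAATCC. MITF and TFEC are basic helix-loop-helix leucine zipper proteins of the MiT family. MITF switches on the enzymes of melanin synthesis through sites around the letters CATGTG, and in the eye it works together with OTX2 on the same pigment genes.

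The binding letters are given where they stand in front of pigment genes and in front of the members themselves, since these are the genes whose levels are set beside one another in the results. Sequences are from RefSeq on GRCm38.p6, read 5′ to 3′ on the strand of the gene, within 250 bases before an annotated transcription start. Capitals mark CATGTG or TAATCC as found on either strand, so that CACATG and GGATTA are the same letters read from the opposite strand.
Tyr, chr7:87493513-87493548, minus strand: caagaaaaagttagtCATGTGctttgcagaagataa
Tyrp1, chr4:80834152-80834187, plus strand: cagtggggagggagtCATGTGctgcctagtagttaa
Dct, chr14:118052345-118052493, minus strand: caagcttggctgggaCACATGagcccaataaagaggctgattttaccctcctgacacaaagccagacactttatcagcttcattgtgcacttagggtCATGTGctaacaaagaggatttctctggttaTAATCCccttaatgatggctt
Trpm1, chr7:64153679-64153821, plus strand: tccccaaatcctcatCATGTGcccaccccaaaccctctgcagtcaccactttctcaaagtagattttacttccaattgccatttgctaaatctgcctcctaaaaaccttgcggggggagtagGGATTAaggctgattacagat
Otx2, chr14:48667748-48667783, minus strand: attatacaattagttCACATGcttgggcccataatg
Otx2, another start, chr14:48665300-48665335, minus strand: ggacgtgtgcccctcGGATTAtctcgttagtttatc
Mitf, chr6:97929683-97929718, plus strand: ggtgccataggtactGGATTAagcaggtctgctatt

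Tyr and Tyrp1, both enzymes of melanin synthesis, share a longer run around these letters, AGTCATGTGCT, in which CATGTG begins 21 bases before the start of Tyr and 46 bases before that of Tyrp1. That run, chosen as the longest that both windows share, stood on either strand in 7 of the 32851 promoter windows of the table (0.0213%). CATGTG alone stood in 12.3% of the windows and TAATCC in 6.25%. Of the 12 genes on a list of melanin and melanosome genes, 7 had a window in the table, and 6 of these held CATGTG (Dct, Oca2, Slc24a5, Trpm1, Tyr and Tyrp1), against 13.8% of all 27025 genes with a window. Dct and Trpm1 held TAATCC as well. Dct, which encodes dopachrome tautomerase, has CATGTG at 232 and 150 bases and TAATCC at 119 bases before its start. For the members, 8 windows from 3 genes were held, because Otx2 and Mitf have several starts. Otx2 held CATGTG in one window and TAATCC in another, and Mitf held TAATCC in one. These matches are descriptions of letters, and binding was not measured.

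The libraries held 10.9 to 34.0 M counts, so that 1 read equalled 0.0294 to 0.0917 counts per 1e6 counts (CPM). A count of 0 allows a level of up to 3 reads, or 0.0883 to 0.275 CPM, and this limit covers counting error only. Libraries of the same genotype and number were taken as pieces of 1 embryo, which the labels do not say in words. By the batch labels, batch A then holds 1 control and 3 mutant embryos and batch B 3 control and 2 mutant embryos. Smarcc1 itself measured 144 ± 97.9 CPM in dorsal controls and 54.5 ± 44.9 CPM in dorsal mutants (SD, n = 4 and 5), with overlapping values, and the genotypes did not overlap in the ventral OS (129.8 ± 56.9 and 33.5 ± 19.6 CPM) or the axon region (124 ± 88.7 and 18.3 ± 18.2 CPM). Dorsal control 3 stood apart: it held no read of Otx2 or Mitf and had the highest summed level of 10 mesenchyme markers, 11087 CPM, against 1056 to 3509 CPM in the other dorsal controls. It also held reads of the fewest genes in the dorsal OS, 10881, against 12396 to 16266 in the other dorsal libraries. The part of this in its zeros was not tested. Axon libraries held reads of 9225 to 14118 genes. The axon libraries carried the retinal ganglion cell markers, such as the neurofilament gene Nefm, with a summed level of 7 markers of 1129 to 2778 CPM against 4.10 to 945 CPM in all dorsal and ventral libraries.

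Otx2 was the member that separated the genotypes. In the dorsal OS its level was 48.3, 0, 0 and 64.3 CPM in control embryos 1 to 4 and 248, 160.0, 369, 144 and 158 CPM in mutant embryos 1 to 5. All 5 mutant libraries lay above all 4 controls, and the controls fell into a pair with reads of Otx2 and a pair with none. The means were 28.2 ± 33.2 CPM in controls and 216 ± 95.1 CPM in mutants (SD, n = 4 and 5), a ratio of 7.66. The ventral controls stood at 0, 0, 0 and 3.54 CPM and the ventral mutants at 56.8, 69.2, 86.9, 51.0 and 17.6 CPM. Again no mutant library overlapped a control, and 57 reads in ventral control 4 were the only reads of Otx2 in that group. The ventral means were 0.885 ± 1.77 CPM and 56.3 ± 25.6 CPM (SD, n = 4 and 5). In the axon region Otx2 was at or near 0 in both genotypes: 1 of 4 controls had reads (0.327 CPM), and 2 of 5 mutants had reads (4.69 and 0.233 CPM).

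**Figure D1:**
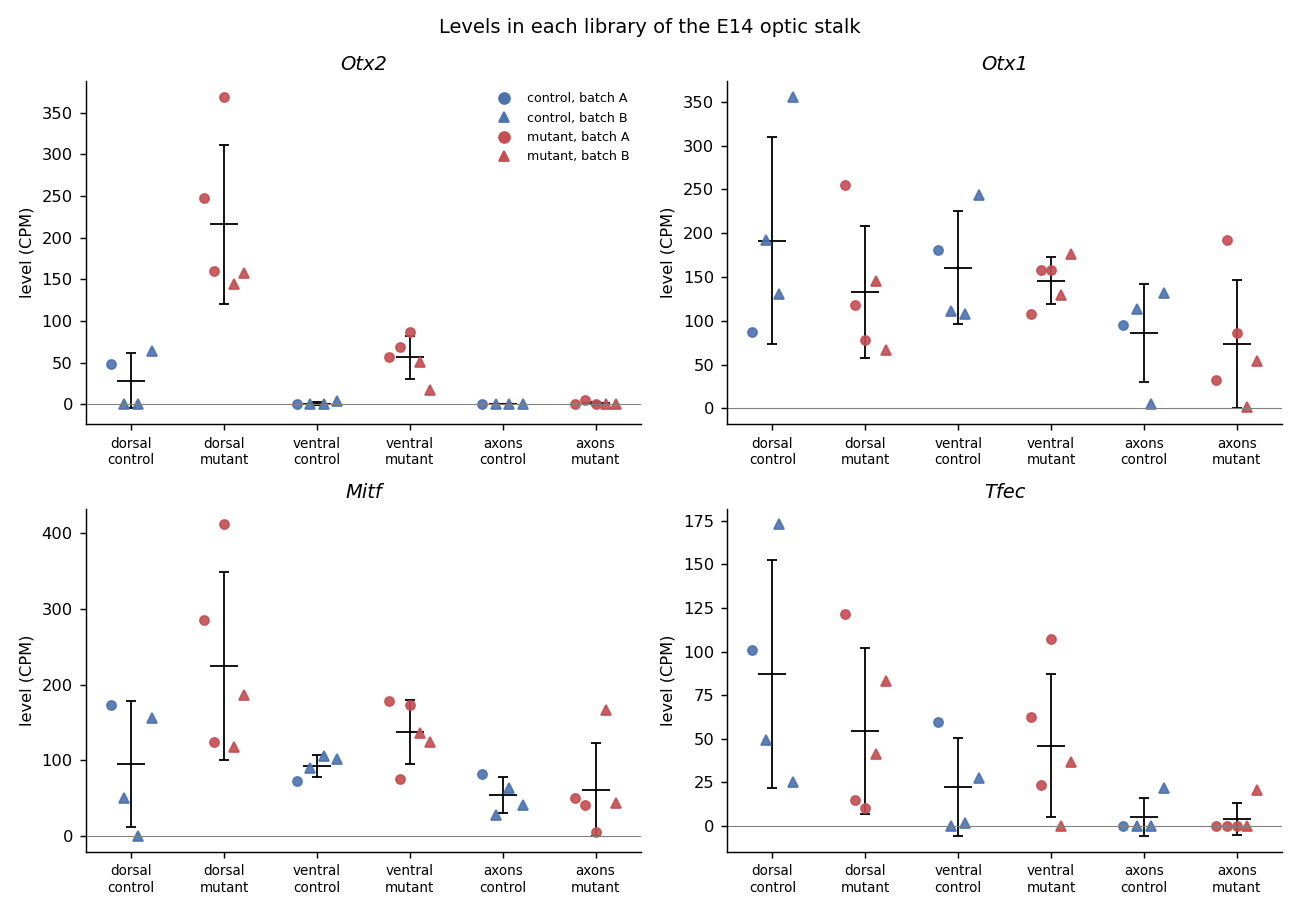
Levels of Otx2, Otx1, Mitf and Tfec in CPM (y axis) in each of the 27 libraries, by region and genotype (x axis). Circles are batch A and triangles batch B, blue is control and red mutant, and the black bars give the mean ± SD of each group. Otx2 in dorsal mutants lies between 144 and 369 CPM and in dorsal controls between 0 and 64.3 CPM, whereas the Otx1 and Tfec values of the genotypes overlap in every region.

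The test of a single gene was an exact permutation of the genotype labels on log2(CPM + 1), two-sided, with 12 such tests over the 4 members and 3 regions. The exact permutation p of Otx2 was 0.00794 in the dorsal and in the ventral OS, the smallest value that 4 against 5 libraries allow, and 0.881 in the axon region. Restricted to the 40 splits that keep the batches together, the exact permutation in both stalk regions gave 0.025, again the smallest possible. The separation stood within each batch. In batch A the dorsal control (48.3 CPM) lay below 160.0 to 369 CPM in 3 mutants, and in batch B the highest dorsal control (64.3 CPM) lay below 144 and 158 CPM. Groups that do not overlap, with mutants higher, were found for 1.31% of the 16145 genes tested in the dorsal OS and for 0.52% of the 16139 genes tested in the ventral OS. Otx2 was the only member among them in either region.

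With the edgeR quasi-likelihood test across all genes, with calls made where the adjusted p was below 0.05 and the log2 fold change beyond 0.58 in either direction, no member was called between the genotypes in any region. At an unadjusted p under 0.05 stood 0 members in the dorsal OS, 1 in the ventral OS (Otx2) and 0 in the axon region, where 3.55% of all genes did. Called genes made up 0.0124% of those tested in the dorsal OS (2 genes), 0.0% in the ventral OS and 0.0% in the axon region. The fitted log2 fold change of Otx2 was 2.69 in the dorsal OS (SE 1.57, 95% interval -0.73 to 6.11, edgeR adjusted p = 0.948). In the ventral OS it was 6.20 (SE 2.36, interval 1.04 to 11.36), with an edgeR adjusted p of 0.999. Unadjusted p-values under 0.05 were given to 3.19% of the genes in the ventral OS and to 5.35% in the dorsal OS. Without the filter on low counts edgeR called Otx2 in the dorsal OS (2.67, adjusted p = 0.00922), and DESeq2 called it in the ventral OS (6.30, adjusted p = 0.0187) but not in the dorsal OS (2.70, adjusted p = 0.582). These settings also called more genes, 101 in the dorsal OS without the filter and 342 in the ventral OS by DESeq2. Over all alternatives its fitted value ran from 1.76 to 6.003 in the dorsal and from 4.86 to 13.65 in the ventral OS and never turned sign. The ventral values of 13.65 (batch A alone) and 12.79 (without ventral control 4) come from fits whose controls held no read of Otx2. Their size is therefore not set by the data.

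**Figure D2:**
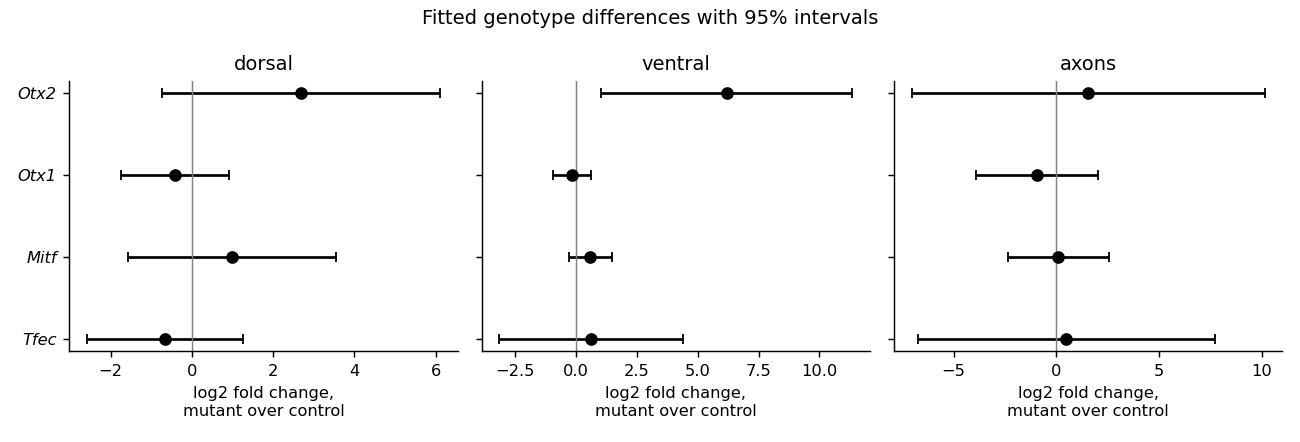
Fitted log2 fold changes of mutant over control (x axis) for each member (y axis) in the 3 regions, from the edgeR fit with batch as a term. Points are estimates and bars their 95% intervals. The interval of Otx2 in the ventral OS, 1.04 to 11.36, is the only one of the 12 that does not cross 0.

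Otx2 shares 3.98% of its exonic bases with Otx2os1, an antisense RNA on the opposite strand, and with a predicted gene on its own strand, and whether the counting used the strand is not stated. Otx2os1 measured 5.07 to 92.9 CPM in dorsal mutants and at most 0.808 CPM in dorsal controls. The reads of the pair cannot be fully told apart, and the shared bases are a small part of Otx2.

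Within mutant embryos Otx2 fell off from dorsal to ventral to axons. It was higher in the dorsal than in the ventral piece of 5 of 5 mutant embryos, and higher in the ventral than in the axon piece of 5 of 5. In control embryos the dorsal piece was higher in 2 of 4, and both pieces were at 0 in the other 2. Between the ventral and the axon piece of control embryos, the ventral one was higher in 1 of 4 and both were at 0 in 2, while control 2 had no read in its dorsal and ventral pieces and 0.327 CPM in its axon piece. In mutants the fitted dorsal-over-ventral difference was 2.03 on the log2 scale (SE 0.35, interval 1.22 to 2.84, edgeR adjusted p = 0.255), with embryo as a block. The dorsal-over-axon difference was 11.13 (SE 2.11, adjusted p = 0.134), in a comparison whose median over all genes was 1.42, and the ventral-over-axon difference was 9.63 (SE 2.91, adjusted p = 0.573) against a median of 1.46. No member was called in these comparisons of mutants, where 0.0371%, 0.266% and 0.259% of all genes were called. Among controls no member was called either, against 0.0126% of all genes between the dorsal OS and the axons and 0.0% in the other pairs of regions. In mutants DESeq2 called Otx2 in all 3 comparisons, where it called 996 of 16168, 2881 of 15780 and 2698 of 15804 genes. The limma voom fit called Otx2 in both comparisons with axons, where it called 398 and 284 of the same genes. The difference between the mutant effects of the dorsal and the ventral OS was not called (-3.87, interval -10.18 to 2.43, adjusted p = 1), and 1 of 16330 genes was called in that test (0.00612%). Of the 12 tests of such differences between regions, 0 were called for a member and 0 had an unadjusted p under 0.05, which 2.3%, 4.95% and 3.89% of all genes had for dorsal against ventral, dorsal against axon and ventral against axon effects. Calls over all genes were 0.0122% and 0.0% in the latter pair.

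**Figure D3:**
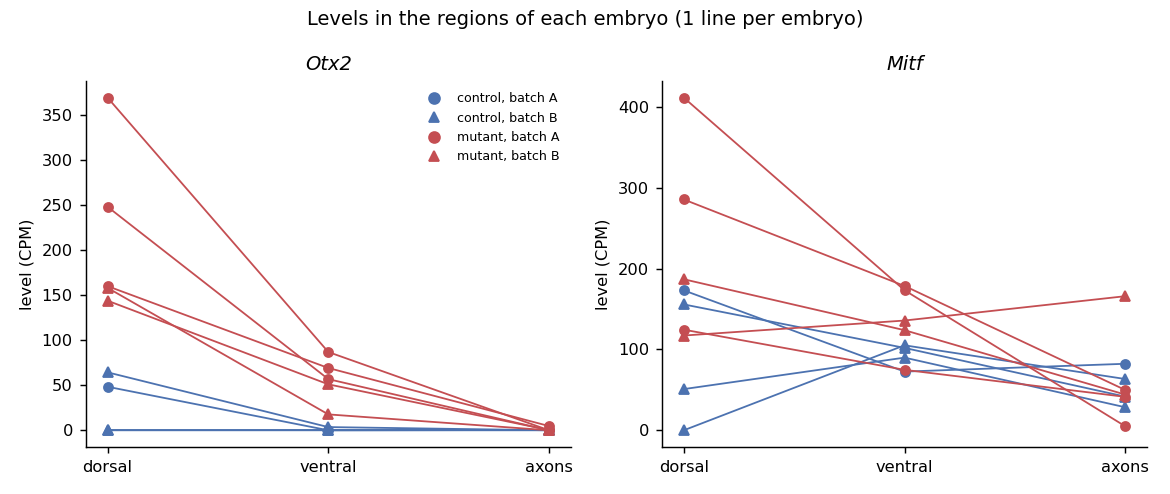
Levels of Otx2 and Mitf in CPM (y axis) in the dorsal, ventral and axon pieces (x axis), with 1 line for each embryo, blue for controls and red for mutants, circles for batch A and triangles for batch B. Every mutant line of Otx2 falls from dorsal (144 to 369 CPM) to ventral (17.6 to 86.9 CPM) to axons (0 to 4.69 CPM), while the lines of Mitf cross.

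In order of mean level Otx2 ran from dorsal mutants over ventral mutants and dorsal controls to axon mutants, ventral controls and axon controls. Only the step from dorsal to ventral mutants was free of overlap between the ranges of neighbours. Each other neighbouring pair of groups overlapped.

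Markers of mesenchyme and of stalk progenitors also differed between the genotypes in the dorsal pieces. The summed level of the 10 mesenchyme markers was 1056 to 11087 CPM in dorsal controls and 55.6 to 373 CPM in dorsal mutants, without overlap, and 6 of the 10 markers, among them the collagen genes Col3a1 and Col1a2 and the proteoglycan gene Dcn, were lower in every mutant than in every control. Groups that do not overlap with mutants lower made up 1.61% of all genes there. The part of this in the dorsal Otx2 values was not tested. Without dorsal control 3 Otx2 gave a log2 fold change of 2.34 and an exact permutation p of 0.0179. That p is the smallest that the remaining libraries allow. It was fixed in advance, since groups without overlap stay apart when a library is removed. In the ventral OS, where Otx2 also separated the genotypes, the mesenchyme sums overlapped (29.6 to 1314 CPM in controls, 53.9 to 199 CPM in mutants). Their medians were 139 CPM in ventral controls and 92.4 CPM in ventral mutants. The fitted difference there lay below 0 in mutants for 9 of the 10 mesenchyme markers, with 0 called, while 46.8% of all genes lay above 0. The part of this in the ventral Otx2 values was not tested either. The 8 stalk and astrocyte progenitor markers summed to 1218 to 1556 CPM in dorsal controls and 419 to 765 CPM in dorsal mutants, again without overlap. Among these 8, Slc1a3, Sox9, Nfia and Hes1 were lower in every dorsal mutant, and in the ventral OS the sums overlapped (2018 to 2140.4 and 1361 to 2373 CPM).

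Otx1, the paralogue of Otx2, did not separate the genotypes in any region. It was read in all 27 libraries. Its dorsal levels were 87.5, 193, 130.2 and 356 CPM in controls and 255, 118, 78.5, 146 and 66.5 CPM in mutants. The ventral levels were 181, 111, 108 and 243 CPM in controls and 108, 158, 158, 129.9 and 176 CPM in mutants. Genotypes overlapped in both stalk regions, and the direction of the small ventral difference turned when a single library was left out. The exact permutation p was 0.397 in the dorsal and 0.841 in the ventral OS. The ventral log2 fold change was -0.15 (SE 0.36, 95% interval -0.93 to 0.63), and the dorsal one was -0.42 (SE 0.61, interval -1.75 to 0.91). In the axon region Otx1 ranged from 5.07 to 131 CPM in controls and from 1.17 to 192 CPM in mutants (exact permutation p = 0.675). Every neighbouring pair in the order of its 6 group means overlapped.

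Because both Otx genes are measured in the same library, the share of Otx2 in their reads does not depend on how libraries are scaled; this measure was chosen after the values had been seen. Per kilobase of exon, Otx2 made up 41.5%, 0%, 0% and 18.8% of the Otx reads in the 4 dorsal controls and 55.5%, 63.6%, 85.8%, 55.9% and 75.3% in the 5 dorsal mutants. Per kilobase, Otx2 was thus the larger part of the pair in each dorsal mutant and the smaller part in each dorsal control. Without division by exon length, Otx1 lay above Otx2 in dorsal mutants 1 (255 and 248 CPM) and 4 (145.8 and 143.8 CPM). The exon lengths come from an annotation that may differ from the one used in counting. In the ventral OS the share was 0% in 3 controls and 1.84% in the fourth, against 11.4% to 41.4% in mutants. The means rose from 15.1% ± 19.7 to 67.2% ± 13.1 in the dorsal OS (SD, n = 4 and 5, exact permutation p = 0.00794) and from 0.459% ± 0.918 to 32.5% ± 12.3 in the ventral OS (exact permutation p = 0.0159). In the axon region the share was 0 to 0.370% in controls and 0 to 20.4% in mutants (exact permutation p = 0.444), and the highest of these rests on 4 reads of Otx2 and 20 of Otx1.

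**Figure D4:**
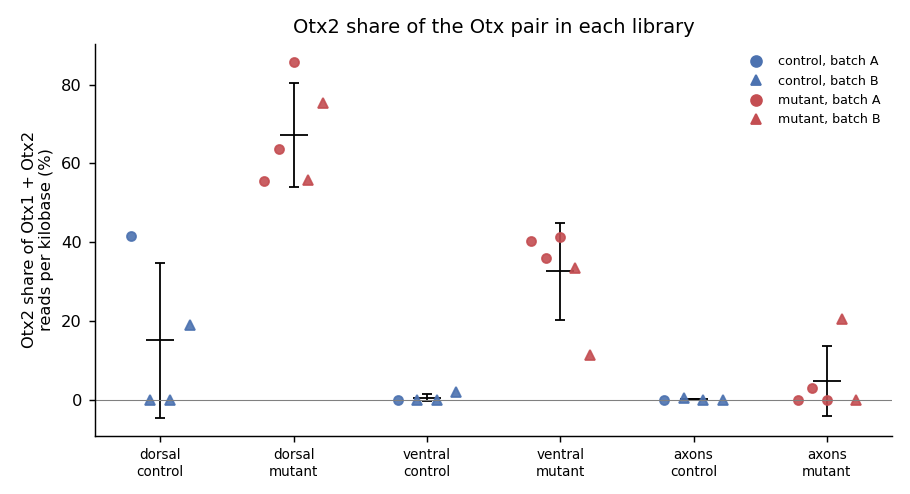
Share of Otx2 in the reads of Otx1 and Otx2 per kilobase of exon, in percent (y axis), in each library by region and genotype (x axis); circles are batch A, triangles batch B, and black bars the mean ± SD. The dorsal mutants lie between 55.5% and 85.8%, above the highest dorsal control at 41.5%, and the ventral mutants lie between 11.4% and 41.4%, above the highest ventral control at 1.84%.

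Mitf, the master regulator of pigment cells, was read in every group and overlapped between the genotypes everywhere. Dorsal controls stood at 173, 50.9, 0 and 156 CPM and dorsal mutants at 285, 124, 411, 117 and 187 CPM. The 2 dorsal controls with high Mitf are the same 2 that held reads of Otx2, and they lay within the range of the mutants. Means were 94.9 ± 83.1 CPM and 225 ± 124 CPM (SD, n = 4 and 5), a ratio of 2.37 with an exact permutation p of 0.0714, and the edgeR log2 fold change was 0.99 (SE 1.17, 95% interval -1.56 to 3.53, adjusted p = 1). With single libraries left out, the fitted value ran from 0.63 (without dorsal control 3) to 1.68 (without dorsal control 4), and the exact permutation p from 0.0536 to 0.25, which is the value without dorsal control 3. Ventral controls held 72.6, 89.8, 105 and 102 CPM and ventral mutants 178, 74.7, 173, 136 and 124 CPM. Of the 5 ventral mutants, 4 lay above all controls, and mutant 2 lay within them. The ventral exact permutation p was 0.103, and it was 0.025 over the splits within batches. With single libraries left out, the exact permutation p ran from 0.0286 (without mutant 2) to 0.232, and the next lowest was 0.107. Mutant 2 was the only mutant that overlapped, so without it the p is the smallest that the remaining libraries allow. The ventral means, 92.3 ± 14.7 and 137 ± 42.1 CPM (SD, n = 4 and 5), differed by 0.59 on the log2 scale in the edgeR fit (SE 0.41, interval -0.31 to 1.49, adjusted p = 0.999).

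Unlike Otx2, Mitf was also read in the axon region of all 9 embryos, at 28.5 to 82.2 CPM in controls and 4.96 to 166 CPM in mutants, with an exact permutation p of 0.738. In mutants it was higher in the dorsal than in the ventral piece of 4 of 5 embryos. The fitted difference was 0.63 (SE 0.25, interval 0.04 to 1.22, edgeR adjusted p = 0.927). Its unadjusted p was under 0.05, as for 4.04% of all genes there. Every neighbouring pair in the order of its group means overlapped. Per kilobase of exon Mitf averaged 15.3 CPM in dorsal controls (range 0 to 27.9) and 36.3 CPM in dorsal mutants (18.9 to 66.4), where Otx2 averaged 6.67 CPM (0 to 15.2) and 51.1 CPM (34.1 to 87.5), so that the mean of Mitf was the higher one in dorsal controls and that of Otx2 in dorsal mutants. Otx2 per kilobase lay above Mitf in each of the 5 dorsal mutants, and in no dorsal control. This order in mutants depends on the exon lengths. In CPM, Mitf lay above Otx2 in dorsal mutants 1 (285 and 248), 3 (411 and 369) and 5 (187 and 158), and below it in mutants 2 and 4.

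Tfec, an MiT-family gene expressed in the RPE, was higher in the dorsal OS than in the axon region of every embryo. It did not separate the genotypes, and edgeR called it neither between genotypes nor between regions. In the dorsal OS it was read in all libraries, at 101, 49.4, 173 and 25.1 CPM in controls and 122, 14.7, 10.4, 41.4 and 83.3 CPM in mutants. Genotypes overlapped (exact permutation p = 0.381), and the edgeR log2 fold change was -0.66 (SE 0.88, 95% interval -2.58 to 1.25, adjusted p = 1). It ran from -1.35 without dorsal mutant 1 to -0.0796 without dorsal control 3. Dorsal control 3, which held no Otx2 or Mitf, had the highest level of Tfec of all 27 libraries. In the ventral OS Tfec was 59.8, 0, 1.83 and 27.3 CPM in controls and 62.2, 23.4, 107, 0 and 37.0 CPM in mutants (exact permutation p = 0.421). In the axon region, 7 of 9 libraries held no read of Tfec, while control 4 held 21.8 CPM and mutant 5 held 20.9 CPM. The dorsal piece was above the axon piece in 4 of 4 control and 5 of 5 mutant embryos. The edgeR adjusted p of that difference was 0.800 in controls and 0.505 in mutants. DESeq2 called it in both genotypes, where it called 1038 of 15899 genes in controls and 2881 of 15780 in mutants.

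Among the relatives of the members, Tfe3 was read in 25 of the 27 libraries, and Crx and Tfeb in fewer. Crx, the photoreceptor member of the OTX family, was at 0 in all ventral controls and all axon libraries, reached 13.0 CPM in dorsal control 4 and 17.1, 9.96 and 1.34 CPM in dorsal mutants 1 to 3, and reached 15.8 and 9.90 CPM in ventral mutants 1 and 2. Every library with a read of Crx also held reads of Otx2, and the levels in ventral mutants 4 and 5 (0.0697 and 0.184 CPM) rest on 1 and 3 reads. Tfe3, a widely expressed MiT gene, averaged 5.14 ± 8.49 and 17.4 ± 17.0 CPM in dorsal controls and mutants and 36.0 ± 27.2 and 37.8 ± 29.9 CPM in ventral controls and mutants (SD, n = 4 and 5). Tfeb, which like Tfe3 controls lysosomal genes, had reads in at most 3 libraries of any group and was at 0 in all dorsal and all axon mutants. Tfeb had an unadjusted edgeR p of 0.0325 in the dorsal OS (adjusted p = 0.918), where dorsal control 1 held nearly all of its reads.

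The targets of MITF and OTX2 in pigment cells were given by a list of 12 melanin and melanosome genes. In the dorsal OS the fitted mutant-over-control difference was above 0 for 12 of 12 genes, with a median log2 fold change of 2.16 against -0.04 over all genes, of which 48.6% lay above 0, and 0 of the 12 were called. Dct and Gpr143 had an unadjusted p under 0.05 in the higher direction, where 2.68% of all genes did. Without dorsal control 3, again 12 of 12 lay above 0, with a median of 1.81. Tyr, which encodes tyrosinase, the rate-limiting enzyme of melanin synthesis, was 122, 0, 0 and 43.7 CPM in dorsal controls and 798, 668, 919.7, 612 and 427 CPM in dorsal mutants. The 2 dorsal controls without Otx2 were the 2 without Tyr. Dct was 304, 30.6, 1.95 and 171 CPM in dorsal controls and 1175, 332, 924, 222 and 533 CPM in dorsal mutants. Tyr separated the genotypes and Dct did not. Gpr143, which encodes a melanosome receptor, was at 0 in all dorsal controls and averaged 49.0 ± 40.4 CPM in dorsal mutants, at least 284-fold over the mean of 3 reads per control library. Pmel, which builds the fibrils of the melanosome, was the most abundant gene of the list and ranged from 37.6 to 4433 CPM in dorsal controls and from 2032 to 8752 CPM in dorsal mutants. Trpm1, a channel gene whose promoter holds both motifs, was 350.3, 377, 0 and 815 CPM in dorsal controls and 782 to 2124 CPM in dorsal mutants.

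In the ventral OS 7 of 11 genes of the melanin list that could be tested lay above 0, with a median of 0.49 against -0.08 over all genes, of which 46.8% lay above 0, and 0 were called. Without ventral control 3, 8 of 11 lay above 0, with a median of 1.16. Tyrp1 separated the genotypes there, with 0 to 17.8 CPM in controls and 25.5 to 222 CPM in mutants. Within mutants the dorsal pieces lay above the ventral ones for 12 of 12 genes, with a median of 3.83 against 0.01 over all genes, of which 50.3% lay above 0. Of the 12, 9 had an unadjusted p under 0.05, against 2.15% of all genes in that direction, and Dct was called (log2 fold change 4.19, SE 0.30, edgeR adjusted p = 0.0140). Against the axon region Dct (6.78, SE 0.58) and Tyr were called in mutants (edgeR adjusted p = 0.00483 each). Tyr had no read in any axon mutant and averaged 685 ± 187 CPM in dorsal mutants (SD, n = 5), at least 4219-fold over the mean of 3 reads per library. The summed level of the list was 43.6 to 5654 CPM in dorsal controls, 4316 to 14562 CPM in dorsal mutants, 297 to 1394 CPM in ventral controls and 666 to 4651 CPM in ventral mutants.

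**Figure D5:**
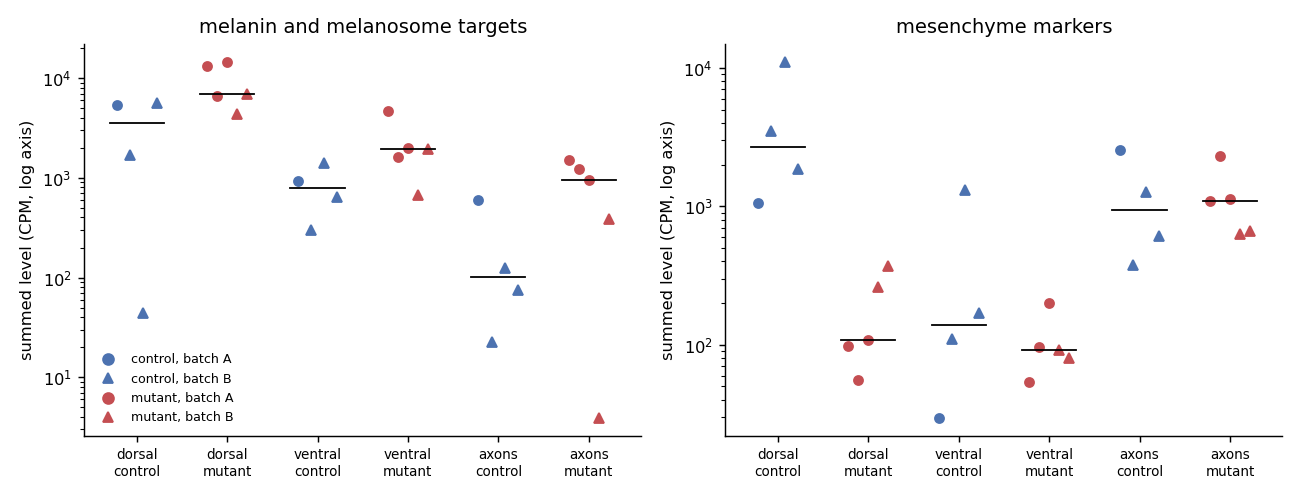
Summed levels in CPM on a log axis (y axis) of the 12 melanin and melanosome genes (left) and of the 10 mesenchyme markers (right) in each library, by region and genotype (x axis). Circles are batch A, triangles batch B, and lines mark group medians. The mesenchyme sums of dorsal controls (1056 to 11087 CPM) lie above those of dorsal mutants (55.6 to 373 CPM), and the melanin sums of dorsal control 3 (43.6 CPM) and axon mutant 4 (3.91 CPM) lie far below those of their groups.

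Genes of the later RPE gave a mixed picture. Of a list of 11, 8 could be tested, and in the dorsal OS 5 lay above 0 in mutants and 3 below, with a median of 1.49 and 0 called. Rlbp1, which encodes the retinaldehyde-binding protein of the visual cycle, was 176, 291, 0 and 318 CPM in dorsal controls and 833, 486, 1039, 379 and 425 CPM in dorsal mutants, without overlap. Ttr, which encodes the retinol carrier transthyretin, was 94.0, 18.1, 0 and 14.7 CPM in dorsal controls and 113 to 537 CPM in dorsal mutants, also without overlap. The opposite direction was measured for Serpinf1, which encodes a secreted factor of the RPE. It was 11.9, 115, 388 and 34.7 CPM in dorsal controls and 0.0917, 0, 6.86, 0 and 0 CPM in dorsal mutants, again without overlap (edgeR adjusted p = 0.918). The mesenchyme sums of dorsal controls 1 to 4 were 1056, 3509, 11087 and 1876 CPM, in the same order of rank as their Serpinf1. In axon mutants, where Ttr was at 0, Serpinf1 averaged 52.6 ± 76.1 CPM (SD, n = 5). The part of mesenchyme in the Serpinf1 values was not tested. Stra6, which encodes the retinol-binding protein receptor, overlapped (39.6 to 270.4 and 9.84 to 399.7 CPM). Within mutants Rlbp1 was called between the dorsal and the ventral OS (log2 fold change 2.34, SE 0.23, edgeR adjusted p = 0.0351). Ttr was at 0 in all axon libraries and was called between the dorsal OS and the axon region of mutants (edgeR adjusted p = 0.0231), at least 1891-fold over the mean of 3 reads per library.

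A list of 12 regulators upstream of Otx2 and Mitf showed 0 calls between the genotypes in each region, with 4 of 12 genes above 0 in the dorsal OS and a median of -0.26 (3 of 12 under another scaling). Pax6, an eye-field and retina transcription factor gene, was 106, 39.0, 47.4 and 53.0 CPM in dorsal controls and 227, 357, 291, 396 and 246 CPM in dorsal mutants, without overlap (log2 fold change 2.27, SE 0.38, edgeR adjusted p = 0.104). Wwtr1, which encodes the co-activator TAZ, lay the other way without overlap, at 44.5 to 127 CPM in dorsal controls and 1.47 to 38.1 CPM in dorsal mutants (-1.76, SE 0.92, adjusted p = 0.920). An unadjusted p under 0.05 was reached by Pax6 in the higher direction and by Nr2f1 in the lower one. Nr2f1, a nuclear receptor gene that acts with Nr2f2 in the patterning of the stalk and the RPE, averaged 489.9 ± 111 CPM in dorsal controls and 261 ± 85.0 CPM in dorsal mutants (SD, n = 4 and 5), with a log2 fold change of -0.77 (SE 0.26, edgeR adjusted p = 0.918). Ventral Nr2f1 averaged 545 ± 109.6 and 501 ± 107 CPM. Nr2f2 averaged 464 ± 136 and 330.2 ± 149 CPM in the dorsal OS. Ctnnb1, which encodes the Wnt effector β-catenin, was called between the ventral OS and the axon region of mutants, where it was lower in the ventral OS (log2 fold change -1.23, SE 0.16, edgeR adjusted p = 0.0287), while the median of all genes there was 1.46.

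Of 7 homeobox factors of the retina and stalk, 6 could be tested, and none was called between the genotypes. Lhx2, which is needed for the eye field and for the early RPE, was 43.6, 47.5, 0 and 58.1 CPM in dorsal controls and 67.0, 115, 89.2, 64.9 and 137 CPM in dorsal mutants, without overlap (log2 fold change 1.38, SE 1.23, edgeR adjusted p = 1). Six3 ranged from 7.79 to 69.6 CPM in dorsal controls and from 58.1 to 96.0 CPM in dorsal mutants, and Six6 from 14.2 to 147 CPM and from 20.7 to 139 CPM, so that both eye-field genes overlapped.

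Markers of other cells in which these genes are active were also measured. The neural crest melanoblast marker Sox10 had reads in only 5 of the 27 libraries and was at 0 in all mutant libraries of all 3 regions. It averaged 5.20 ± 10.3, 1.32 ± 1.91 and 5.30 ± 10.6 CPM in dorsal, ventral and axon controls (SD), so most controls held none either. Pax3, another marker of that list, was at 0 in all dorsal and ventral controls and had reads in dorsal mutant 1 (1.56 CPM) and ventral mutant 2 (0.0615 CPM). Of the melanoblast markers that could be tested, the fitted difference lay above 0 in mutants for 2 of 6 in the dorsal OS, 4 of 6 in the ventral OS and 4 of 5 in the axon region, and 0 were called. The summed level of 8 melanoblast markers was 97.0 to 347 CPM in dorsal controls and 1.56 to 65.7 CPM in dorsal mutants. Ednrb made up most of it, except in dorsal mutant 1, where Ednrb was at 0. Melanoblast sums of the ventral OS overlapped, at 61.4 to 419 CPM in controls and 109.9 to 504 CPM in mutants. Of 6 photoreceptor precursor markers, Rcvrn had reads in 1 of the 27 libraries, and Nrl reached at most 0.621 CPM in any library. Both were at 0 in all dorsal and ventral mutants, and Rcvrn also in all dorsal controls. Prdm1 and Thrb each had reads in 13 of the 27 libraries. The fitted difference lay above 0 in mutants for 2 of 4 testable markers in the dorsal OS, where 48.6% of all genes did. It did so for 2 of 4 in the ventral OS (46.8%) and 0 of 3 in the axon region (42.3%), and 0 were called. Rxrg was read in all 5 dorsal mutants (11.7 to 64.7 CPM) and in dorsal control 2 (212 CPM), which held no Otx2. Endothelial marker sums overlapped between the genotypes in the dorsal OS (207 to 407 and 43.2 to 416 CPM).

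The genes most like each member over the 27 libraries were ranked by Pearson's r of log2(CPM + 1) among 10432 genes with a mean of at least 5 CPM, as a description, since the libraries share regions, batches and embryos. For Otx2 the 5 highest were Tyr (r = 0.83), Slc38a8 (0.82), Tyrp1 (0.82), Rorb (0.81) and Gadd45g (0.81), so that 2 of the 5 encode enzymes of melanin synthesis. Otx1 was nearest to Nxf1 (0.90), Cpsf2, Lrp1, Rfx3 and Mfap3, and Mitf to Shcbp1 (0.89), Ddx39, Gyg, Tspan31 and Psmc3ip. The list of Tfec was led by Zfp931 (0.80), Ndufaf1, Nars2, Plpbp and Sap30. No melanin gene stood among the nearest 5 of Otx1, Mitf or Tfec. Among the members the highest value joined Otx2 and Mitf (0.60), and the lowest joined Otx1 and Mitf (-0.02).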

How the data were processed

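Geo-seq libraries of 3 regions from 9 E14 embryos were used, 27 in all, and tissue of an earlier stage was not analysed here. The authors mapped the single-end reads with STAR (mm10) and counted them with HTSeq in the Seq2Science pipeline at default settings, and deposited raw counts per gene without scaling or filter. Tool versions, annotation release and the strand setting are not given in the sources used here. The cDNA was amplified by PCR and carries no molecular identifiers, so counts are not independent molecules. Replicates are libraries of separate embryos, and p-values measure the spread between them.

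Symbols, positions and exon lengths came from GENCODE M21 on mm10 (55227 of 55487 identifiers matched, with 0.00287% of counts in the others), and promoter sequences from RefSeq on GRCm38.p6. In mm10, Otx2 (ENSMUSG00000021848.16) lies on chr14:48657677-48673819, Otx1 (ENSMUSG00000005917.15) on chr11:21994764-22002897 and Tfec (ENSMUSG00000029553.10) on chr6:16833373-16898441, all on the minus strand, and Mitf (ENSMUSG00000035158.15) lies on chr6:97807052-98021349 on the plus strand. CPM is the count divided by the library total.

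Tests used edgeR 4.0.16 in R 4.3.3 (quasi-likelihood, robust, TMM scaling) on the 16330 genes that had over 10 counts in 3 or more libraries, with Benjamini-Hochberg adjustment. Genotypes were compared within a region with batch as a term, regions within a genotype with embryo as a block, and the difference of mutant effects in all 27 libraries with embryo as a block. Libraries that share genotype and number were taken as the pieces of 1 embryo, which the labels do not say in words. Their deviations from the group means correlated weakly (r from -0.0195 to 0.115 over 27 pairs). The pairing rests on the numbering, the batch labels and the capture of 3 regions described by the authors, not on this check. Standard errors are approximate, since they were taken back from each F statistic. Exact permutation tests were two-sided. DESeq2 1.42.0 and limma 3.58.1 (voom) were run as alternatives on the same counts, with other scalings, filters, batch terms and left-out libraries. The steps were tested on simulated data. For a gene at 0 in a whole group, bounds used 3 reads per library, averaged over the group.

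Named genes were taken from the members, their family relatives, the 3 genes with the highest mean CPM of each other list and any list gene called, Smarcc1, and the 5 genes most like each member. Tyrp1, Gpr143, Sox10, Nfia, Hes1, Oca2, Slc24a5, Rcvrn, Nrl, Serpinf1, Pax3, Pax6, Wwtr1 and Otx2os1 were named after their values had been seen. The members and lists were chosen with earlier results of these data known. One gene of the homeobox list is not reported here.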

Additional observations from a re-analysis of the deposited data

Results flagged for a closer look

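Of 24 combinations of member and group, 6 held a highest library that lay apart from the rest of its group by Dixon's ratio of gap to range. For normally spread values, chance marks about 1 group in 20 by this measure. Most of the 6 groups are near 0, and that rate does not hold there. A single library with reads is always marked where the others are at 0. Otx2 reached 3.54 CPM in ventral control 4, 0.327 CPM in axon control 2 and 4.69 CPM in axon mutant 2, where the other libraries of these groups had 0 or, in axon mutant 4, 0.233 CPM. Tfec reached 21.8 CPM in axon control 4 and 20.9 CPM in axon mutant 5, where all other axon libraries had 0. Mitf reached 166 CPM in axon mutant 4, against 4.96 to 49.8 CPM in the other 4 axon mutants. None of the 12 tests of a difference in mutant effect between regions was called by edgeR for a member, and 0 of them had an unadjusted p under 0.05. DESeq2 called 1, that of Otx2 between the ventral OS and the axon region (adjusted p = 0.00907), where it called 1811 of 16330 genes.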

How the results depend on the processing

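Otx2 stayed higher in dorsal and ventral mutants under all 19 alternatives of the fit, with log2 fold changes of 1.76 to 6.003 (adjusted p from 0.00922 to 1) and 4.86 to 13.65 (adjusted p from 0.0187 to 1). With single libraries left out, these ran from 2.34 to 5.37 and from 4.86 to 12.79, and the exact permutation p was 0.0179 to 0.0286 in both regions. These p-values are the smallest possible and were fixed in advance, since groups without overlap stay apart when a library is removed. The ventral fold changes of 13.65 and 12.79 come from fits whose controls held no read of Otx2, so their size is not set by the data. Against 0 members called by edgeR, DESeq2 called 1 in the ventral OS (Otx2), 1 between the dorsal and ventral OS of mutants (Otx2), 2 between dorsal OS and axons in controls and 2 in mutants (Otx2 and Tfec), 2 between ventral OS and axons in mutants (Otx2 and Tfec) and 1 in the mutant effect of ventral OS against axons (Otx2). limma voom called 2 between dorsal OS and axons (Otx2 and Tfec) and 1 between ventral OS and axons of mutants (Otx2). Without the count filter edgeR called 1 in the dorsal OS (Otx2, 2.67). No member was called when a library or embryo was left out. Over all genes, edgeR called 0 to 42 genes in the 12 comparisons, DESeq2 342 to 2881 and limma voom 6 to 398. In the dorsal OS edgeR called 2 genes, 101 without the filter, 40 without its legacy mode and 8 without the batch term.

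Reversals concerned differences that were not called, and their cause was not tested. Otx1 turned in the dorsal OS within batch A (0.76) and with the replicate block with batch (0.13), in the ventral OS within batch B (0.00269) and in the axon region within batch A (0.0827). Mitf turned in the axon region within batch A (-1.43). Tfec turned in the axon region in the fit of all 27 libraries (-0.23), without the batch term (-0.26) and with the replicate block (-8.94), and with that block in the dorsal (0.49) and ventral OS (-4.51). With single libraries left out, Otx1 ran from -1.06 to 0.0878 in the dorsal and from -0.32 to 0.0782 in the ventral OS, Mitf from -0.70 to 1.18 in the axon region, and Tfec from -5.24 to 8.49 in the axon region and from -3.80 to 2.08 in the ventral OS. The exact permutation p then ran from 0.371 to 0.911 for Mitf, 0.321 to 0.929 for Otx1, 0.714 to 1 for Otx2 and 0.732 to 1 for Tfec in the axon region, and from 0.464 to 1 for Otx1 in the ventral OS. Mitf in the ventral OS gave 0.025 within batches and 0.0286 to 0.232 with libraries left out. One alternative for Tfec in the axon region could not be fitted.

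Genotype replicate numbers name different embryos and pair nothing: same-numbered libraries of a region correlated at -0.0509 to 0.0279, and 0 of 12 control libraries were closest to their own number. With the replicate block the calls over all genes in the dorsal OS fell from 2 to 0. Without the embryo block the calls between regions of mutants were 0 in place of 6 for dorsal against ventral OS, 86 in place of 42 for dorsal OS against axons and 70 in place of 41 for ventral OS against axons, and no member was among them. Depth limits the low groups: 3 reads equal 0.0883 to 0.275 CPM, and Otx2 in the axon region rests on 6 reads in controls.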
